A study of Macaca mulatta with 13 samples.

Results

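Natural killer (NK) cell receptors were described in peripheral blood mononuclear cells, the lymphocytes and monocytes of blood, from 13 rhesus macaques aged 4 months. The set held 10 genes (KLRC1, KLRC3, KLRD1, KLRF1, KLRB1, KLRK1, NCR1, NCR3, NCAM1 and FCGR3) and every probe set of the array that the platform annotation pairs with exactly 1 of these symbols. These were 26 of 52707 probe sets, for 7 of the 10 genes and of the 14132 genes that the annotation names in this way; KLRC3, KLRB1 and NCR1 had no such probe set and are not analysed here. The genes were selected on values of these same arrays: fitted differences between animals reared without and with their mother were known when the set was proposed. Every value set against the maternal group is therefore a description and tests nothing, whereas the comparison of surrogate-peer with peer rearing, and the variation of animals within a rearing group, were not used for the choice.

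The series asked whether early rearing changes gene expression. Each animal gave 1 array of total RNA: 5 were maternally reared, 4 peer reared and 4 surrogate-peer reared, and peer and surrogate-peer animals together are called non-maternal. All groups were macaques of the same age and the labels name no other treatment or genotype. Neither sex nor a collection or scan batch was used here. Each probe set has a log2 value from robust multi-array averaging (RMA), so a difference of 1 is a change of 2-fold. Different probes bind with different strength, so levels were never compared between probe sets, and the probe sets of a gene are numbered from the highest mean downward. Arrays have no read depth; their number limits the precision.

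NK cells are lymphocytes that kill infected, stressed or transformed cells without prior sensitisation, and they weigh inhibitory against activating signals from their surface receptors. KLRD1 encodes CD94 and KLRC1 encodes NKG2A; the 2 proteins pair into an inhibitory receptor for the non-classical MHC class I molecule MHC-E. KLRK1 (NKG2D), KLRF1 (NKp80) and NCR3 (NKp30) encode activating receptors, FCGR3 encodes CD16, the Fc receptor through which NK cells kill antibody-coated cells, and NCAM1 encodes the adhesion molecule CD56. None of these is limited to NK cells: NKG2D is also carried by cytotoxic T cells, CD16 by a subset of monocytes and by neutrophils, and CD56 in rhesus blood largely by monocytes. RefSeq places KLRC1, KLRC2, KLRK1, KLRD1, KLRF1 and KLRB1 on the same chromosome, the NK gene complex of C-type lectin receptors, with KLRK1 next to KLRD1 among protein-coding genes, and 5 protein-coding genes between KLRD1 and KLRC1. In RNA of mixed blood cells, fewer cells of a type and less RNA per cell cannot be told apart.

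Tests were limited to probe sets whose average level exceeded 6.04 on the log2 scale, the median of such averages, which kept 26352 probe sets and 16 of the 26 receptor probe sets. The lowest tested receptor probe set, NCR3 probe set 2, had a mean of 6.79, and the highest untested one, NCR3 probe set 3, a mean of 5.93. The tested ones were 2 of KLRC1, 4 of KLRD1, 1 each of KLRF1, KLRK1 and FCGR3, 2 of NCR3 and 5 of NCAM1. The remaining 10, of KLRC1, NCR3 and NCAM1, lay between 3.49 and 6.15 on all arrays. Array medians lay between 5.995 and 6.06. The log2 ratio of 3' to 5' control signal, a measure that moves with RNA quality and labelling, was 1.85 ± 0.28 (SD, n = 5) on maternal arrays and 1.45 ± 0.14 (SD, n = 8) on the others. Of the latter, peer arrays had 1.54 ± 0.15 (SD, n = 4) and surrogate-peer arrays 1.37 ± 0.06 (SD, n = 4). The ratio ranged from 1.56 to 2.22 on maternal, 1.38 to 1.74 on peer and 1.31 to 1.44 on surrogate-peer arrays. Its part in the differences below was not tested beyond a fit that carries it as a covariate.

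The inhibitory receptor chain KLRC1 was lower in most non-maternal animals by its second probe set (MmuSTS.2945.1.S1_s_at). The maternal values in array order were 9.25, 8.52, 9.50, 7.76 and 9.04. The peer values were 7.22, 7.75, 7.20 and 7.83. The surrogate-peer values were 7.32, 7.37, 8.24 and 6.50. Of the 8 non-maternal animals 6 lay below every maternal animal, and peer 4 and surrogate-peer 3 reached into the maternal range through the low maternal array 4. The group means were 8.81 ± 0.69 (SD, n = 5), 7.50 ± 0.34 (SD, n = 4) and 7.36 ± 0.71 (SD, n = 4), and the fitted non-maternal minus maternal difference was -1.38 ± 0.32 (standard error). The name of this probe set ends in s_at, which marks probes shared by more than 1 transcript, so it may also read close relatives of KLRC1 and its identity is uncertain.

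The first KLRC1 probe set did not give the same picture. It read 9.94, 9.12, 10.48, 9.14 and 9.69 on the maternal arrays. It read 10.50, 8.10, 7.42 and 9.50 on the peer arrays and 9.29, 9.01, 4.08 and 9.45 on the surrogate-peer arrays. Peer 1 was above every maternal animal, 4 non-maternal animals were below all of them, and surrogate-peer 3 lay far below every other array, although the second probe set read that animal highest of its group. The fitted difference was -1.26 ± 0.84 (standard error) with all arrays and -0.61 without surrogate-peer 3. Within the rearing groups these KLRC1 probe sets did not follow each other (Pearson r = -0.33, adjusted permutation p = 0.64 over 120 pairs, 13 arrays).

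KLRD1, the CD94 partner of KLRC1, had 4 tested probe sets, 3 of which were lower in most non-maternal animals. Probe set 1 (MmugDNA.17475.1.S1_s_at), whose name carries the same s_at mark and the same doubt, read 10.93, 10.76, 10.19, 10.23 and 10.32 on the maternal arrays. It read 10.71, 9.41, 9.24 and 9.46 on the peer arrays and 10.59, 9.53, 10.27 and 9.88 on the surrogate-peer arrays. Peer 1 and surrogate-peer 1 stayed within the upper maternal range, and 5 of the 8 non-maternal animals lay below every maternal one. Group means were 10.49 ± 0.34 (SD, n = 5), 9.70 ± 0.68 (SD, n = 4) and 10.07 ± 0.46 (SD, n = 4). The fitted non-maternal differences of probe sets 1, 3 and 4 were -0.60 ± 0.26, -0.62 ± 0.25 and -0.63 ± 0.30 (standard errors), and probe sets 3 and 4 each had 6 of 8 non-maternal animals below all maternal ones.

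KLRD1 probe set 2 (MmunewRS.927.1.S1_at) went the other way, by 0.42 ± 0.15 (standard error). It read from 8.89 to 9.82 on maternal arrays, from 9.73 to 10.04 on peer arrays and from 9.68 to 9.93 on surrogate-peer arrays. The transcript accession that the annotation gives for it is not among those RefSeq lists for rhesus KLRD1, so whether it reads KLRD1 is uncertain.

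**Figure D1:**
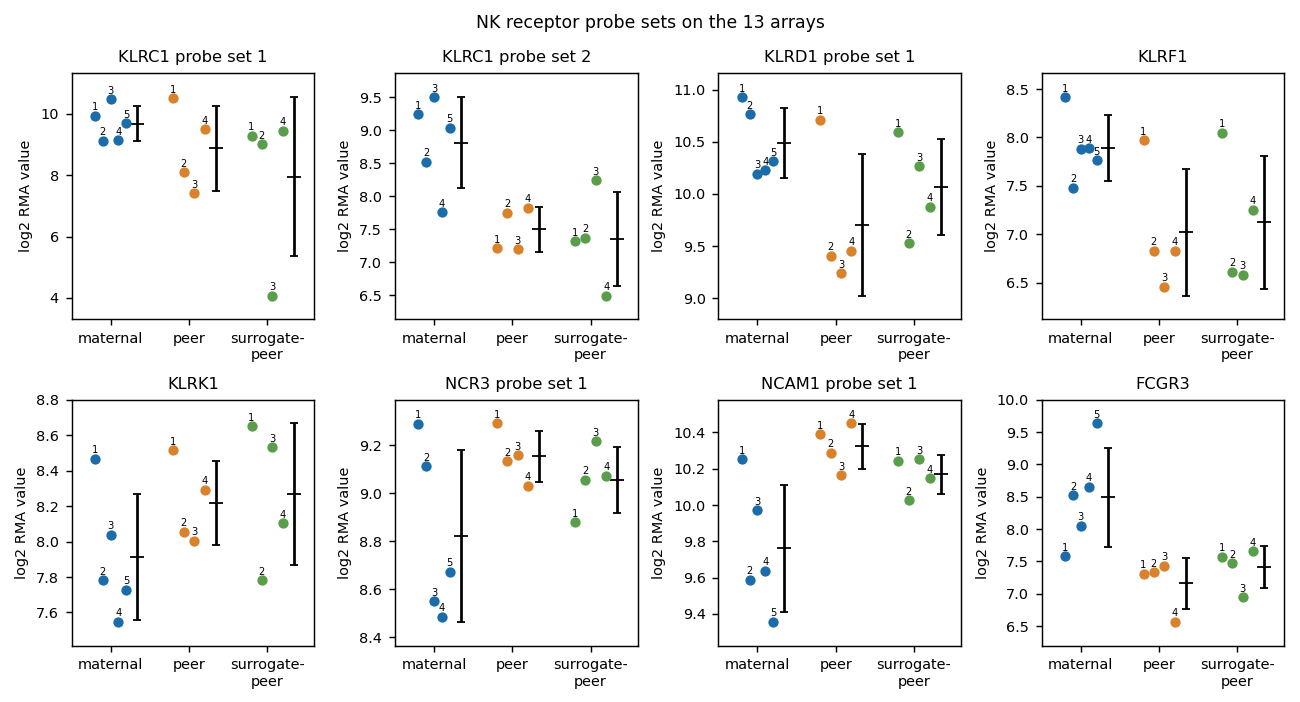
Log2 RMA values (vertical axis) of 8 receptor probe sets by rearing group (horizontal axis); numbered points are arrays, and the bar beside each group is the mean with 1 SD (n = 5 maternal, 4 peer, 4 surrogate-peer). FCGR3, KLRF1 and KLRC1 probe set 2 sit lower in most non-maternal animals, NCAM1 probe set 1 sits higher, and in every panel some non-maternal values fall inside the maternal range.

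The activating receptor KLRF1, or NKp80, had 1 probe set (MmugDNA.36059.1.S1_at), which was lower in most non-maternal animals. The maternal values were 8.42, 7.48, 7.88, 7.89 and 7.77. The peer values were 7.97, 6.83, 6.46 and 6.83, and the surrogate-peer values were 8.05, 6.62, 6.58 and 7.26. As for KLRD1, peer 1 and surrogate-peer 1 lay within the maternal range, and the 6 other non-maternal animals lay below all maternal ones. Group means were 7.89 ± 0.34 (SD, n = 5), 7.02 ± 0.66 (SD, n = 4) and 7.13 ± 0.69 (SD, n = 4), and the fitted difference was -0.81 ± 0.29 (standard error).

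KLRK1, the activating receptor NKG2D that signals through the adaptor HCST, did not share that direction. Its probe set (MmugDNA.15454.1.S1_at) read 8.47, 7.78, 8.04, 7.55 and 7.73 on the maternal arrays. It read 8.52, 8.06, 8.01 and 8.29 on the peer arrays and 8.65, 7.78, 8.53 and 8.10 on the surrogate-peer arrays. The groups overlapped broadly around means of 7.91 ± 0.36 (SD, n = 5), 8.22 ± 0.23 (SD, n = 4) and 8.27 ± 0.40 (SD, n = 4). The fitted difference was 0.33 ± 0.18 (standard error).

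NCR3, the natural cytotoxicity receptor NKp30, was read by 2 tested probe sets that differed in sign. Probe set 1 (MmugDNA.3877.1.S1_at) read 9.29, 9.11, 8.55, 8.48 and 8.67 on the maternal arrays. It read 9.29, 9.13, 9.16 and 9.03 on the peer arrays and 8.88, 9.06, 9.22 and 9.07 on the surrogate-peer arrays. The non-maternal values filled the upper part of the maternal range: the maternal mean was 8.82 ± 0.36 (SD, n = 5), the peer mean 9.15 ± 0.11 (SD, n = 4) and the surrogate-peer mean 9.06 ± 0.14 (SD, n = 4). The fitted differences were 0.28 ± 0.13 for probe set 1 and -0.11 ± 0.13 for probe set 2 (standard errors). The mean over all NCR3 probe sets differed by 0.02.

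FCGR3, or CD16, was lower in 7 of the 8 non-maternal animals than in any maternal animal. Its probe set (MmugDNA.19066.1.S1_at) read 7.58, 8.53, 8.05, 8.65 and 9.63 on the maternal arrays. It read 7.31, 7.33, 7.43 and 6.57 on the peer arrays and 7.57, 7.47, 6.94 and 7.65 on the surrogate-peer arrays. Surrogate-peer 4 was above maternal 1, the lowest maternal array, and maternal 5 was the highest array of all. Group means were 8.49 ± 0.77 (SD, n = 5), 7.16 ± 0.40 (SD, n = 4) and 7.41 ± 0.32 (SD, n = 4), and the fitted difference was -1.20 ± 0.29 (standard error), or 0.434 of the maternal level. Maternal animals varied more than the others, and the fit uses 1 spread for all groups, so its error for the maternal comparison may be too small.

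NCAM1, or CD56, was higher in non-maternal animals by its brightest probe set (MmuSTS.3313.1.S1_at). The maternal values were 10.25, 9.59, 9.97, 9.64 and 9.36. The peer values were 10.39, 10.29, 10.16 and 10.45, and the surrogate-peer values were 10.24, 10.03, 10.25 and 10.15. Maternal 1 lay among the non-maternal animals and the other maternal animals lay below all of them. Group means were 9.76 ± 0.35 (SD, n = 5), 10.32 ± 0.13 (SD, n = 4) and 10.17 ± 0.11 (SD, n = 4), and the fitted difference was 0.48 ± 0.13 (standard error). Maternal animals again varied more than the others, so this error may also be too small. The adjusted p of this probe set in limma was 0.0424, and 0.0576 without the filter on low values. The other tested probe sets gave 0.29 ± 0.13, 0.41 ± 0.28, 0.20 ± 0.12 and 0.02 ± 0.12, and the mean over all 10 NCAM1 probe sets, 5 of which were not tested for low level, differed by 0.12. Without the 3 arrays of highest classical monocyte marker level, maternal 2, maternal 5 and surrogate-peer 2, the difference of the brightest probe set was 0.32. Within groups this probe set fell as classical monocyte markers rose (r = -0.88), although CD56 in rhesus blood is carried largely by monocytes. Whether it reads CD56 is uncertain and was not tested.

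Counted over the 16 tested probe sets, 3 passed limma's adjusted p threshold of 0.05 for non-maternal minus maternal: FCGR3 and KLRC1 probe set 2 lower, NCAM1 probe set 1 higher. Over all tested probe sets 8.0% passed, 6.64% higher and 1.35% lower; since the set was chosen with this contrast in view, nothing is read from the comparison of these shares. The receptor differences had both signs equally, 8 positive and 8 negative, with a median of -0.05 beside 0.01 for all tested probe sets, and 8 of them had an unadjusted p under 0.05 in limma, against 29.0% of all tested probe sets. No receptor probe set had all non-maternal animals below all maternal ones (0.971% of all tested probe sets did) or above them (1.89%). The differences of peer animals alone were -1.31 for KLRC1 probe set 2, -1.33 for FCGR3 and 0.56 for NCAM1 probe set 1, and those of surrogate-peer animals alone were -1.45, -1.08 and 0.41; both use the same maternal arrays. None of the 16 passed for peer minus maternal, where 0.353% of all tested probe sets did, and 8 had an unadjusted p under 0.05 in limma, against 24.9% of all. None passed for surrogate-peer minus maternal, where 0% of all tested probe sets did, and 5 had such an unadjusted p, against 20.3% of all.

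The count of 3 depended on single arrays, and so did the count over all tested probe sets, 2107 with every array. The receptor count was 6 without maternal 1, where 4823 of all tested probe sets passed. It was 0 without maternal 4, maternal 5 or peer 1, where 30, 60 and 309 of all passed. It was 1 without maternal 2, maternal 3, peer 2, peer 4 or surrogate-peer 3, where 1218, 1198, 715, 886 and 474 of all passed. Of the 13 fits that each left out 1 array, KLRC1 probe set 2 passed in 9, FCGR3 in 6 and NCAM1 probe set 1 in 1. The differences themselves kept their sign in all 13, from -1.65 to -1.21 for KLRC1 probe set 2, from -1.43 to -0.92 for FCGR3 and from 0.38 to 0.61 for NCAM1 probe set 1. Without the 3 arrays of highest monocyte marker level the receptor count was 0 and 5 of all tested probe sets passed, with differences of -1.41 for KLRC1 probe set 2 and -0.82 for FCGR3. After centring each array on its median, or after quantile normalization, 2 passed lower and 0 higher; over all tested probe sets the split was 1751 higher and 356 lower as deposited, 1094 and 834 after centring and 883 and 450 after quantile normalization. With the 3' to 5' ratio as a covariate the difference was nearer 0 for KLRC1 probe set 1 (-0.70), KLRD1 probe set 1 (-0.39), KLRF1 (-0.26) and NCR3 probe set 1 (0.12). It was farther from 0 for FCGR3 (-1.59), KLRC1 probe set 2 (-1.60), NCAM1 probe set 1 (0.71) and KLRK1 (0.48). In that fit 2 receptor probe sets passed, and 1566 of all tested probe sets did. NCAM1 probe set 1 was among the 2, while FCGR3 and KLRC1 probe set 2 did not pass. The other that passed was none of the probe sets listed here for that fit.

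**Figure D2:**
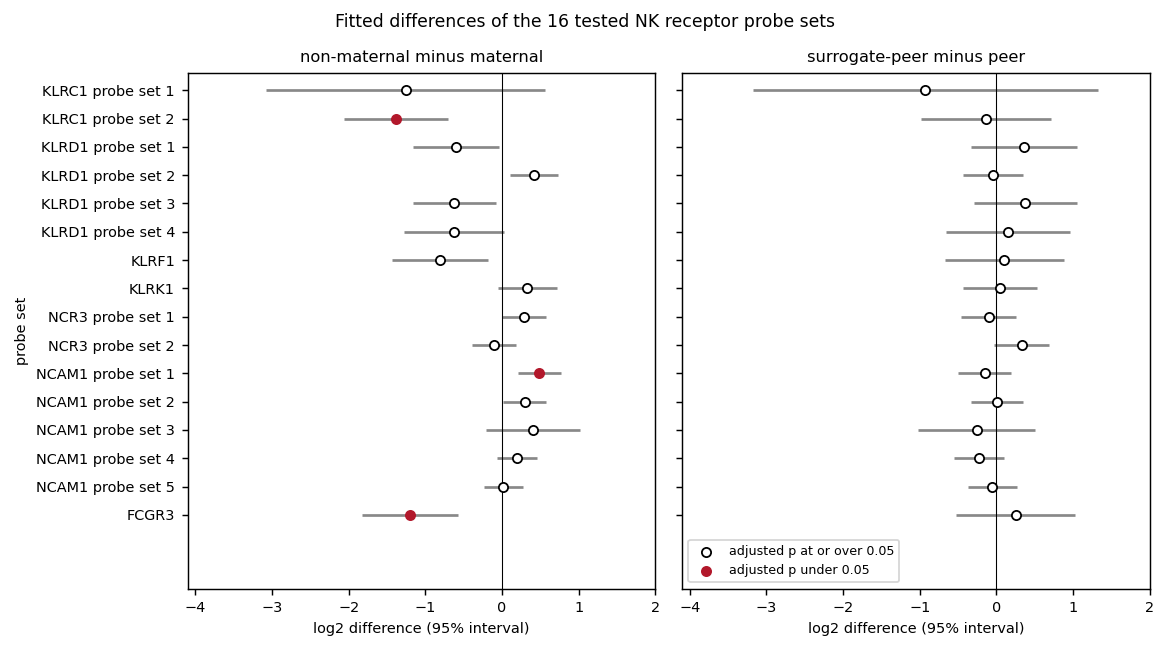
Fitted log2 differences (horizontal axis, points) with 95% intervals (lines) of the 16 tested receptor probe sets (vertical axis), non-maternal minus maternal on the left and surrogate-peer minus peer on the right; filled points passed limma's adjusted p threshold of 0.05. The 3 filled points are KLRC1 probe set 2 (-1.38), NCAM1 probe set 1 (0.48) and FCGR3 (-1.20), and every interval on the right spans 0.

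Surrogate-peer was compared with peer rearing, a contrast that did not enter the choice of genes. None of the 16 receptor probe sets passed (limma, adjusted p = 1.0 for each), 0% of all those tested passed, and no receptor probe set had an unadjusted p under 0.05, against 1.83% of all those tested. No receptor probe set separated these groups without overlap, which 1.74% of all tested probe sets did. The KLRD1 difference was 0.36 with a 95% interval from -0.33 to 1.05, and that of KLRF1 was 0.10 (-0.67 to 0.88). That of KLRC1 was -0.93 (-3.18 to 1.33) for probe set 1 and -0.14 (-0.99 to 0.71) for probe set 2; without surrogate-peer 3 the former was 0.37. These intervals are wide, most of all that of KLRC1 probe set 1, which reaches farther below 0 than above it. KLRK1 differed by 0.05 (-0.43 to 0.53) and NCAM1 probe set 1 by -0.15 (-0.50 to 0.19). The NCR3 probe sets had opposite signs, -0.10 (-0.46 to 0.26) for probe set 1 and 0.33 (-0.03 to 0.69) for probe set 2, which had the smallest unadjusted p of the 16 in limma (0.0708). FCGR3 differed by 0.25 (-0.52 to 1.03). The 2 groups therefore had no detectable difference in these receptors at 4 animals each, which does not show that they were alike. Of the other cell types, B cell markers had a median surrogate-peer minus peer difference of -0.92, with 8 of 8 measured markers negative; NK markers had 0.10, with 6 of 8 positive.

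Receptor values were then compared across animals after subtracting each rearing group's mean, so that the differences between groups did not enter. Of 6 planned pairs, 2 could be measured. KLRD1 and KLRC1, whose products form the CD94/NKG2A receptor, had a Pearson r of 0.16 over 13 arrays (permutation p = 0.635, Spearman rho = 0.30, p = 0.409; adjusted over 2 relations 0.635 and 0.409). KLRD1 and FCGR3 had an r of -0.17 (permutation p = 0.536, rho = -0.26, p = 0.404; adjusted 0.635 and 0.409). Without peer 1 and surrogate-peer 1, the arrays farthest from the KLRD1 median, these were -0.44 and -0.51. Without peer 3 and surrogate-peer 3, the arrays farthest from the KLRC1 median, the r of KLRD1 and KLRC1 was 0.48. The sign of that r thus depended on which arrays were left out. Neither pair of genes showed a detectable relation among animals of a group.

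Among all 120 pairs of tested receptor probe sets, a family added after the data were seen, 8 passed an adjusted permutation p of 0.05 by r and 0 by rho. KLRD1 probe sets 1, 3 and 4 followed each other closely: probe sets 1 and 3 had r = 0.94 (permutation p = 1.3e-04, adjusted 0.0069, rho = 0.88, adjusted 0.0556, 13 arrays; r = 0.82 without peer 1 and surrogate-peer 1). Probe sets 1 and 4 had r = 0.89 and probe sets 3 and 4 had r = 0.90 (adjusted permutation p = 0.0069 for each). All of them placed peer 1 and surrogate-peer 1 highest in their groups. KLRD1 probe set 2 did not follow probe set 1 (r = 0.21, adjusted permutation p = 0.64); its highest r were with NCAM1 probe set 1 (0.89, adjusted permutation p = 0.0562) and, in the negative direction, with FCGR3 (-0.82, adjusted permutation p = 0.0688).

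**Figure D3:**
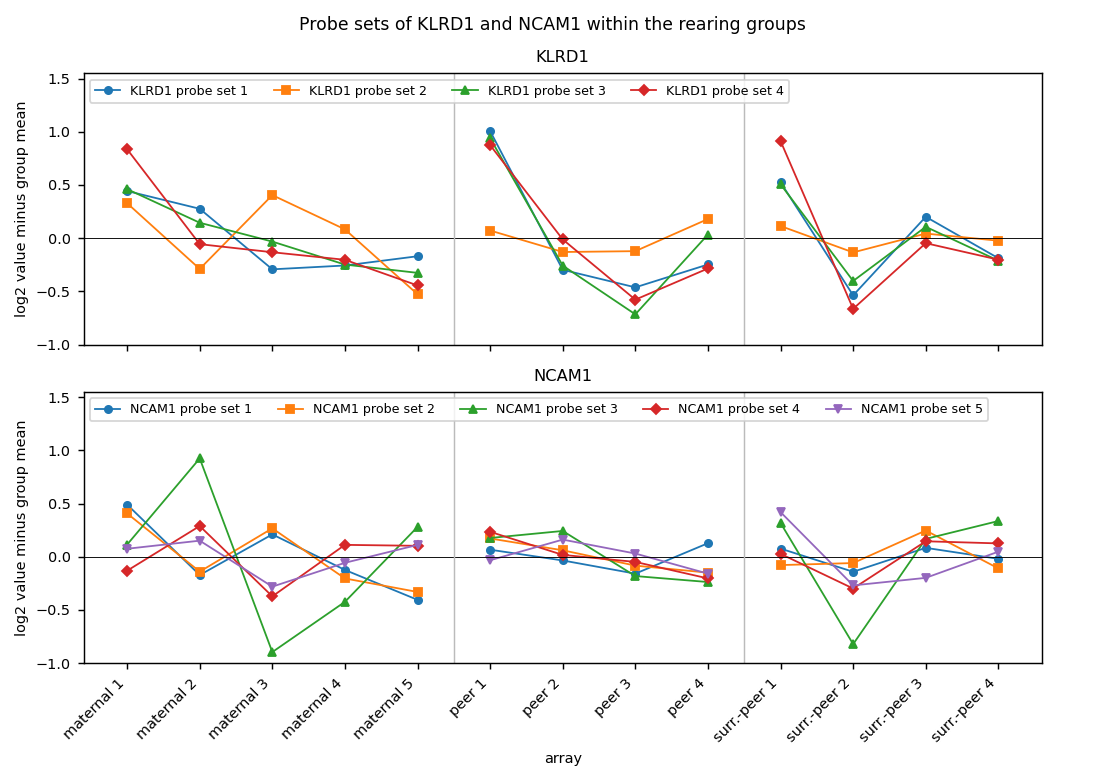
Log2 values minus the mean of the rearing group (vertical axis) on the 13 arrays (horizontal axis) for the 4 probe sets of KLRD1 and the 5 tested probe sets of NCAM1; lines join the arrays of a group to show a probe set and imply no order. KLRD1 probe sets 1, 3 and 4 move together (r from 0.89 to 0.94) and probe set 2 does not; no pair of NCAM1 probe sets passed, with r = 0.83 between probe sets 1 and 2 and -0.15 between 1 and 3.

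KLRK1, the neighbour of KLRD1 in the genome, rose and fell with KLRD1 among animals of a group. The r was 0.75 with KLRD1 probe set 1, 0.80 with probe set 3 and 0.84 with probe set 4 (adjusted permutation p = 0.0398, 0.0069 and 0.0274), and without the 2 arrays farthest from the median it was 0.76, 0.90 and 0.81. By rho the adjusted permutation p were 0.0802, 0.0556 and 0.0556. KLRF1 had r of 0.88 with KLRD1 probe set 4 (adjusted permutation p = 0.054) and 0.75 with probe set 1 (adjusted 0.151); the latter was 0.21 without peer 1 and surrogate-peer 1, so it rests on those arrays.

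NCAM1 probe set 1 and FCGR3 ran opposite to each other within groups (r = -0.88, permutation p = 0.00277, adjusted 0.0415; rho = -0.72, adjusted 0.175; r = -0.69 without maternal 1 and maternal 5). NCAM1 probe set 1 also followed KLRK1 (r = 0.78, permutation p = 0.00189, adjusted 0.0378). No pair of NCAM1 probe sets passed: r was 0.83 between probe sets 1 and 2, 0.81 between 3 and 4 and -0.15 between 1 and 3 (adjusted permutation p = 0.0688, 0.0627 and 0.815). Without the 2 arrays farthest from the median the r of 3 and 4 was 0.53. NCR3 probe sets 1 and 2 had an r of -0.22 (adjusted permutation p = 0.627).

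**Figure D4:**
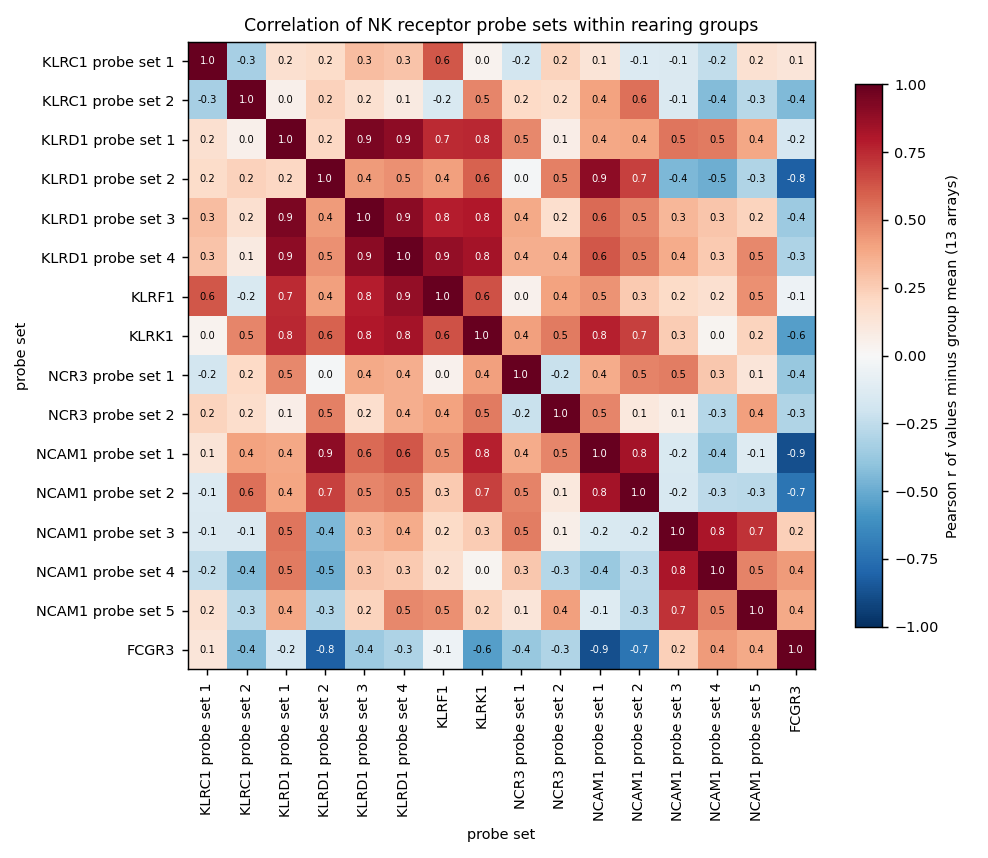
Pearson r between the 16 tested receptor probe sets (both axes) over 13 arrays after subtracting the rearing group mean; the colour scale runs from -1 to 1 and each cell prints r. KLRD1 probe sets 1, 3 and 4 with KLRF1 and KLRK1 are positive with each other, though no pair with KLRF1 passed. NCAM1 probe set 1 is positive with KLRD1 probe set 2 (0.89), NCAM1 probe set 2 (0.83) and KLRK1 (0.78). FCGR3 is negative with NCAM1 probe set 1 (-0.88) and KLRD1 probe set 2 (-0.82).

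The genes whose within-group pattern over the 13 arrays was most like each receptor were taken as the 5 highest r among the other tested probe sets with 1 symbol; being chosen as highest, they carry no p. For KLRF1 they were GZMB (r = 0.95), GZMH (0.90), KIR3DH5 (0.90), KLRD1 (0.88) and RNF170 (0.88). GZMB and GZMH encode granzymes, the proteases of cytotoxic granules, and KIR3DH5 is a killer immunoglobulin-like receptor of macaques. For FCGR3 they were NMI, DAGLB and CCNJL (0.96 each), KRT16 (0.94) and AIF1 (0.95), a gene of the monocyte and macrophage lineage. For NCAM1 they were APTX (0.98), NFE2L2, ADAMTS9, OSER1 and MATR3 (0.97 each). For KLRK1 they were LUC7L2, C1H1orf35, APTX, PTBP1 and DUSP12, with r from 0.89 to 0.90. For NCR3 they were NUDT21, SCNM1, B4GALNT1, ZBTB14 and SYNCRIP, with r from 0.95 to 0.97. For KLRD1 they were RBL1, DNAJC21, PGRMC1, IFNL1 and TRPA1 (0.86 to 0.88). For KLRC1 they were OXLD1, AP3S2, MYNN, RFXAP and SVIP by probe set 1 (0.85 to 0.89) and PRPF3, GOLGA1, THUMPD3, LIPT1 and TMOD4 by probe set 2 (0.82 to 0.88). Of these lists, that of KLRF1 held granzymes and other NK receptors. KLRF1 lay 0.95 above its group mean on peer 1 and 0.92 above on surrogate-peer 1. Without these arrays its r with KLRD1 probe set 4 was 0.65, and those with GZMB and GZMH were not taken again.

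Marker genes of the cell types in the sample moved with several receptors, and their part in the differences was not tested. All 8 measured of 10 NK markers were lower in non-maternal animals, with a median difference of -0.45, and 2 passed (NKG7 and GZMB); their mean level ranged from 8.90 to 10.26 on maternal, 9.07 to 9.55 on peer and 8.60 to 9.96 on surrogate-peer arrays. Maternal 5, the array highest for FCGR3, had the lowest NK marker level of the maternal group, 8.90. Its neutrophil marker level, 10.01, was the highest of all arrays, but FCGR3 is itself one of those markers. This is 1 animal, and the cells that gave its FCGR3 signal were not tested. Of 10 neutrophil markers 4 were measured, 3 lower and 1 higher in non-maternal animals, with a median of -0.27, and FCGR3 alone passed. Their level was 8.62 to 10.01 on maternal, 8.53 to 9.40 on peer and 8.84 to 9.83 on surrogate-peer arrays. All 7 measured of 10 markers of CD16-bearing monocytes were lower, with a median of -0.42; 2 passed, MS4A7 (-1.48) and SIGLEC10 (-0.38). Their level was 8.63 to 9.25 on maternal, 8.20 to 8.53 on peer and 8.13 to 8.67 on surrogate-peer arrays. All 9 measured of 15 T cell markers were higher, with a median of 0.50; 2 passed, BCL11B (0.70) and LAT (0.50). Their level was 8.40 to 8.91 on maternal, 8.94 to 9.16 on peer and 8.87 to 9.27 on surrogate-peer arrays. Classical monocyte markers, 8 of 11 measured, spanned 10.97 to 12.42, 10.97 to 12.13 and 11.13 to 12.47 in the same order of groups. Of the types not known for these receptors, B cells had 8 of 8 measured markers lower, with a median of -0.72 and 1 passing (FCRLA, -0.92), basophils 3 of 3 higher, with a median of 0.98 and 1 passing (CPA3, 1.34), and platelets 6 of 6 lower, with a median of -0.32 and 0 passing in limma (1 at an unadjusted p under 0.05). None of the 4 markers of gamma delta T cells could be measured, so this cell type, which can carry NK receptors, was not checked.

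Within groups, relations between 8 receptor probe sets and 4 marker levels made a family of 32, added after the data were seen. NCAM1 probe set 1 fell as classical monocyte markers rose (r = -0.88, permutation p = 3e-05, adjusted 9.6e-04; rho = -0.95, adjusted 9.6e-04; r = -0.95 without maternal 1 and maternal 5). It rose with T cell markers (r = 0.88, permutation p = 4.3e-04, adjusted 0.00688; rho = 0.92, adjusted 0.00976; r = 0.86 without the same arrays). KLRK1 behaved likewise, with r = -0.81 for classical monocyte and 0.83 for T cell markers (adjusted permutation p = 0.0297 for each; by rho 0.0249 and 0.151). FCGR3 had r = 0.75 with classical monocyte markers, 0.70 with markers of CD16-bearing monocytes and -0.53 with NK markers, none of which passed (adjusted permutation p = 0.0504, 0.0771 and 0.269). Without maternal 1 and maternal 5 these r were 0.66, 0.44 and 0.03. KLRF1 and KLRD1 had r of 0.55 and 0.44 with NK markers (adjusted permutation p = 0.183 and 0.266). Without peer 1 and surrogate-peer 1 these were 0.15 and 0.11, so they rest on those arrays. No receptor gene passed against the 3' to 5' ratio among 8 relations; KLRF1 had the highest r, 0.48 (permutation p = 0.0312, adjusted 0.25).

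**Figure D5:**
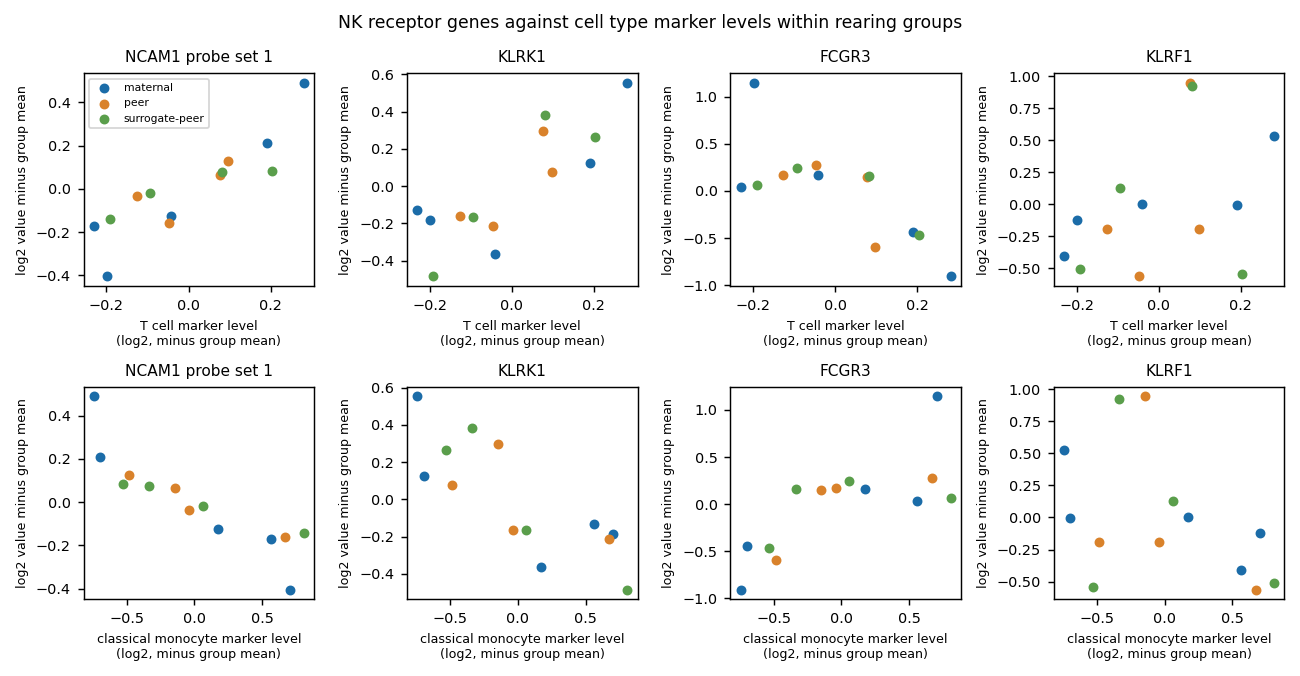
Log2 values of NCAM1 probe set 1, KLRK1, FCGR3 and KLRF1 (vertical axes) against the mean level of T cell markers (upper row) and classical monocyte markers (lower row; horizontal axes), all minus the rearing group mean; each point is 1 of 13 arrays, coloured by group. NCAM1 rises with T cell markers (r = 0.88) and falls with monocyte markers (r = -0.88), FCGR3 shows the opposite slopes, and KLRF1 shows no clear slope.

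The genes around the receptors were read from 6 lists, with 1 probe set per gene, the one of highest mean, and adjusted p from the same limma fit over all probe sets tested. Over all 9657 genes measured in this way, 6.30% rose and 1.69% fell in non-maternal animals and the median difference was 0.01. Of 22 other NK surface receptors, 13 were measured: 1 rose in non-maternal animals, 0 fell and the median difference was -0.13. The gene that rose was CD96, a receptor for nectin family ligands (0.90, adjusted p = 0.0252), whereas its other tested probe set gave -0.14. CD300A, an inhibitory receptor, gave -1.20 and CRTAM, an activating receptor, 0.85, and neither passed (adjusted p = 0.0740 and 0.0715 in limma).

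Of 19 adaptors and proximal kinases, which carry the receptor signals inward, 13 were measured, with 1 higher, 2 lower and a median of -0.23. Which blood cells these values came from was not tested. Markers of B cells and of CD16-bearing monocytes were also lower in non-maternal animals, and those of T cells were higher. SYK, the kinase that ITAM-bearing adaptors recruit, fell by 0.75 (limma, adjusted p = 0.0342) and INPP5D, the inositol phosphatase SHIP1, fell by 0.23 (adjusted p = 0.0355). PTPN11, the phosphatase SHP-2 that inhibitory receptors recruit, rose by 0.53 (adjusted p = 0.0252). TYROBP, the adaptor DAP12, gave -0.47 and HCST, the DAP10 adaptor of NKG2D, -0.27, neither passing (limma, adjusted p = 0.113 and 0.248). Of 17 ligands of NK receptors, 10 were measured and 0 passed in limma, 3 at an unadjusted p under 0.05; the median was 0.07. CADM1, the ligand of CRTAM, gave -0.37, BAG6, a ligand of NKp30, -0.23, CLEC2D 0.40, and MAMU-E, the macaque MHC-E that NKG2A recognises, 0.10.

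Of 21 cytotoxic effector genes, 13 were measured, 0 rose and 4 fell, with a median of -0.35. They were the granzymes GZMB (-1.37) and GZMH (-1.61), the granule membrane protein NKG7 (-1.01) and the cystatin CST7 (-0.92), with adjusted p from 0.0203 to 0.0422 in limma. GZMB and NKG7 are also the NK markers that passed above, because the lists share genes, so these are not separate observations. Of 22 transcription factors, 17 were measured, 1 rose and 2 fell, with a median of -0.18. PRDM1, the regulator Blimp-1, gave -0.73 and ZBTB32 gave -0.93 (limma, adjusted p = 0.0401 and 0.0229). RUNX1 gave 0.47 (limma, adjusted p = 0.0377, 0.0678 after quantile normalization), but its 3 other tested probe sets were negative. TBX21 and EOMES, the T-box factors of NK cells, gave -0.63 and -0.43 and did not pass (limma, adjusted p = 0.0851 and 0.283). Of 20 cytokine and homing receptors, a list that also holds the cytokine IL15, 12 were measured and 1 fell, the fractalkine receptor CX3CR1 (-0.30, limma adjusted p = 0.0289); IL15 gave -0.76 and did not pass (adjusted p = 0.124). Apart from RUNX1, every gene of these 6 lists named as passing also passed after centring each array and after quantile normalization. Whether these genes passed without single arrays was not examined. Over all tested probe sets 30 passed without maternal 4 and 60 without maternal 5, against 2107 with every array. For surrogate-peer minus peer, 0 genes of the 6 lists passed in limma, and 1 gene in all, among the other NK surface receptors, had an unadjusted p under 0.05.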

How the data were processed

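The deposited table holds log2 expression values per probe set of 13 Affymetrix rhesus arrays, made by the authors with RMA, per the submitters' processing notes; neither its version and settings nor a joint normalization of all arrays is stated in these sources. The log2 scale was checked on the values. Of 52865 probe sets, 158 control probe sets were left out. Differences were fitted with limma 3.58.1 (lmFit, eBayes) in R 4.3.3 over 26352 probe sets and all 13 arrays, with two-sided Benjamini-Hochberg adjusted p-values and a threshold of 0.05. The fit was tested on simulated data. Correlations used group-centred values with two-sided permutation within groups (100000 resamples) and Benjamini-Hochberg adjustment within each family. Genes were named from the platform annotation; all 7 measured receptors matched RefSeq by Entrez identifier. Members, lists and tests were chosen with earlier results of these data known. The text names the tested receptor probe sets, the 5 genes most like each receptor, and list genes past the threshold, up to 8, or else the 3 of smallest p, with some further list members added after their values were seen. Alternatives were centring, quantile normalization, no filter, array weights, fits on the compared groups alone, the 3' to 5' covariate, the mean over a gene's probe sets and leaving out arrays. Arrays are 1 per animal as far as the labels say; p-values measure the spread between these samples.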

Additional observations from a re-analysis of the deposited data

Results flagged for a closer look

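Of 48 sets of arrays examined (16 probe sets in 3 rearing groups), 5 held 1 array set apart from the others of its group by a gap that is large for its group's range. The cutoff is one that about 1 in 20 independent sets of normally distributed values would pass. These sets share arrays and genes, and the rate over all tested probe sets was not computed, so nothing is read from the count. Surrogate-peer 3 read 4.08 for KLRC1 probe set 1, where the nearest array of its group read 9.01. Peer 1 read 10.71 for KLRD1 probe set 1, with the nearest at 9.46. Surrogate-peer 3 read 10.14 for NCAM1 probe set 2, with the nearest at 9.84. Surrogate-peer 2 read 6.74 for NCAM1 probe set 3, with the nearest at 7.72. Peer 4 read 6.57 for FCGR3, with the nearest at 7.31.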

How the results depend on the processing

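Leaving out 1 array at a time gave 0 to 6 receptor probe sets past the threshold for non-maternal minus maternal, 0 to 3 for peer minus maternal and 0 to 2 for surrogate-peer minus maternal. The highest count of each came without maternal 1, where 4823, 3484 and 2095 of all tested probe sets passed, in the same order. For peer minus maternal, array weights gave 2 (1543 of all tested probe sets) and the 3' to 5' covariate 3 (1445 of all), against 0 (93 of all) as reported. Without the 3 arrays of highest classical monocyte marker level, chosen after seeing the data, the non-maternal count was 0 (5 of all). The surrogate-peer minus peer differences changed sign for some genes when 1 array was left out: from -1.42 to 0.37 for KLRC1, from -0.44 to 0.15 for its second probe set, from -0.20 to 0.42 for KLRF1 and from -0.079 to 0.21 for KLRK1; the mean over all NCR3 probe sets gave 0.11 against -0.10. The correlation of KLRD1 ranged from -0.16 to 0.57 with KLRC1 and from -0.36 to 0.015 with FCGR3. The causes were not tested. No paired analysis was possible because the labels give no replicate numbers that groups share. Of the 6 planned pairs, 4 could not be run, since KLRC3, NCR1 and KLRB1 had no probe set.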
